A study of Mus musculus with 30 samples.

Results

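The chaperone set examined here comprised 10 genes: Hspa8, Hspa5, Hspa4, Hsp90aa1, Hsp90ab1, Hsph1, Hspd1, Hspe1, Hspb1 and Dnajb1. Its members were all probe sets on 3 types of Affymetrix mouse array (chips A, B and C) whose annotation gives 1 of these symbols and no other. This rule found 18 of the 36899 probe sets, for 9 of the 10 genes, and none for Hsp90ab1. The RNA came from mouse primary visual cortex (V1), taken at postnatal day 14 (P14, 3 litters), 28 (P28, 3 litters) and 60 (P60, 4 litters). No treatment or allele is named in the labels. The replicate is the litter, and if animals were pooled within it the p-values measure the spread between litters and not between animals. Values are MAS5 signals, a linear brightness with no unit.

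Heat shock proteins hold unfolded proteins and help them fold. In the cytosol a J-domain protein such as Dnajb1 brings a client to an HSP70, and a nucleotide exchange factor of the HSP110 family, such as Hsph1 or Hspa4, lets the HSP70 release it. HSP90 acts later on kinases, receptors and other clients, Hspa5 (BiP) is the HSP70 of the endoplasmic reticulum, and Hspd1 and Hspe1 form the folding chamber of mitochondria and its lid. Many of these genes are switched on by heat or other stress, whereas Hspa8, which also uncoats clathrin-coated vesicles, is made by neurons at all times.

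Across the 3 ages no member probe set passed the main test, which used all litters with equal weight. The mitochondrial pair Hspd1 and Hspe1 and the HSP110 gene Hspa4 had lower signals in every P60 litter than in any younger one on their brightest probe sets, and Hspa8 had higher ones at P60 than at P28. Not all probe sets of Hspd1 and Hspa4 went the same way. A call for Hspa8 depended on P14 litter 1, in which its signal was about as high as in the adult. Dnajb1, Hsp90aa1, Hsph1 and Hspa5 had overlapping P14 and P60 litters, and Hspb1 lay at the level of the array's background.

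Of the 18 probe sets, 12 (8 genes) were bright enough to be tested, meaning above the chip type's median signal on at least 3 arrays. The other 6 were those of Hspb1, the further probe sets of Hsp90aa1 and 2 of the 5 for Hspa4. Limma with Benjamini-Hochberg adjustment over 20724 probe sets called 0 of the 12 between P14 and P28 (0.00483% of all tested probe sets were called), 0 between P28 and P60 (0%) and 0 between P14 and P60 (0.396%). A moderated F-test over the 3 ages also called 0, against 0.111% of all. At an unadjusted p under 0.05 there were 0, 3 and 4 of the 12 in these comparisons. Of all tested probe sets 7.87%, 5.43% and 15.7% had such a p. Hspa4 (100353_g_at), among the 3 and the 4, entered the test mainly through the ages where it was high. The median log2 change of the 12 was -0.09 from P14 to P28, -0.09 from P28 to P60 and -0.17 from P14 to P60, where all tested probe sets had 0.03, -0.01 and 0.06. Without P14 litter 1 the members' median was 0.05 from P14 to P28, opposite in sign, and -0.05 from P14 to P60. In each comparison 4 of the 12 estimates were above 0, against 52.9%, 49.0% and 54.8% of all tested probe sets.

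One P14 litter stood apart and bears on most members. Its Gapdh 3′ control probe set was 9.57 to 12.2 times as bright as the 5′ one on the 3 chips, against 0.741 to 1.32 times on the other 27 arrays. The signal of this litter was the highest of the P14 litters for 8 of the 12 member probe sets (41.5% of all tested probe sets) and at least 1.5 times the mean of the other P14 litters for 5 of them (22.4%). The median of that ratio was 1.29 over the members and 0.980 over all tested probe sets. Litters 1 and 4 of P60 correlated less well with the other arrays on chips A and B than litters 2 and 3, and both lay below litters 2 and 3 in 5 of the 12 (24.8% of all). Of 10 neuron markers 9 had a probe set, and none of them was below background at every age. The summed signal of these 9 was highest on P14 litter 1, at 50559, and at most 40746 in any P28 or P60 litter. That of 6 astrocyte markers was also highest there, at 22045, and at most 12069 in any P28 or P60 litter. That of 3 blood markers was 5155 on P14 litter 1 and at least 16849 in any P28 or P60 litter. The sums of 6 microglia markers (2161, Aif1 below background) and 8 endothelial and mural markers (1210, Tek below background) were also lowest on P14 litter 1. With age, the summed signal of 5 oligodendrocyte markers was 3528 to 6585 at P14, 7467 to 12602 at P28 and 8824 to 13000 at P60, with Cnp below background. That of 6 meninges and choroid plexus markers was 7658 to 7894 at P14, 3164 to 3548 at P28 and 2422 to 3513 at P60, with Kl below background. On both lists the P14 and P60 litters did not overlap, and 1 marker of each passed from P14 to P60. The part of RNA quality and of other cells in the results was not tested. In bulk tissue, fewer cells of a type and less RNA per cell cannot be told apart.

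**Figure D1:**
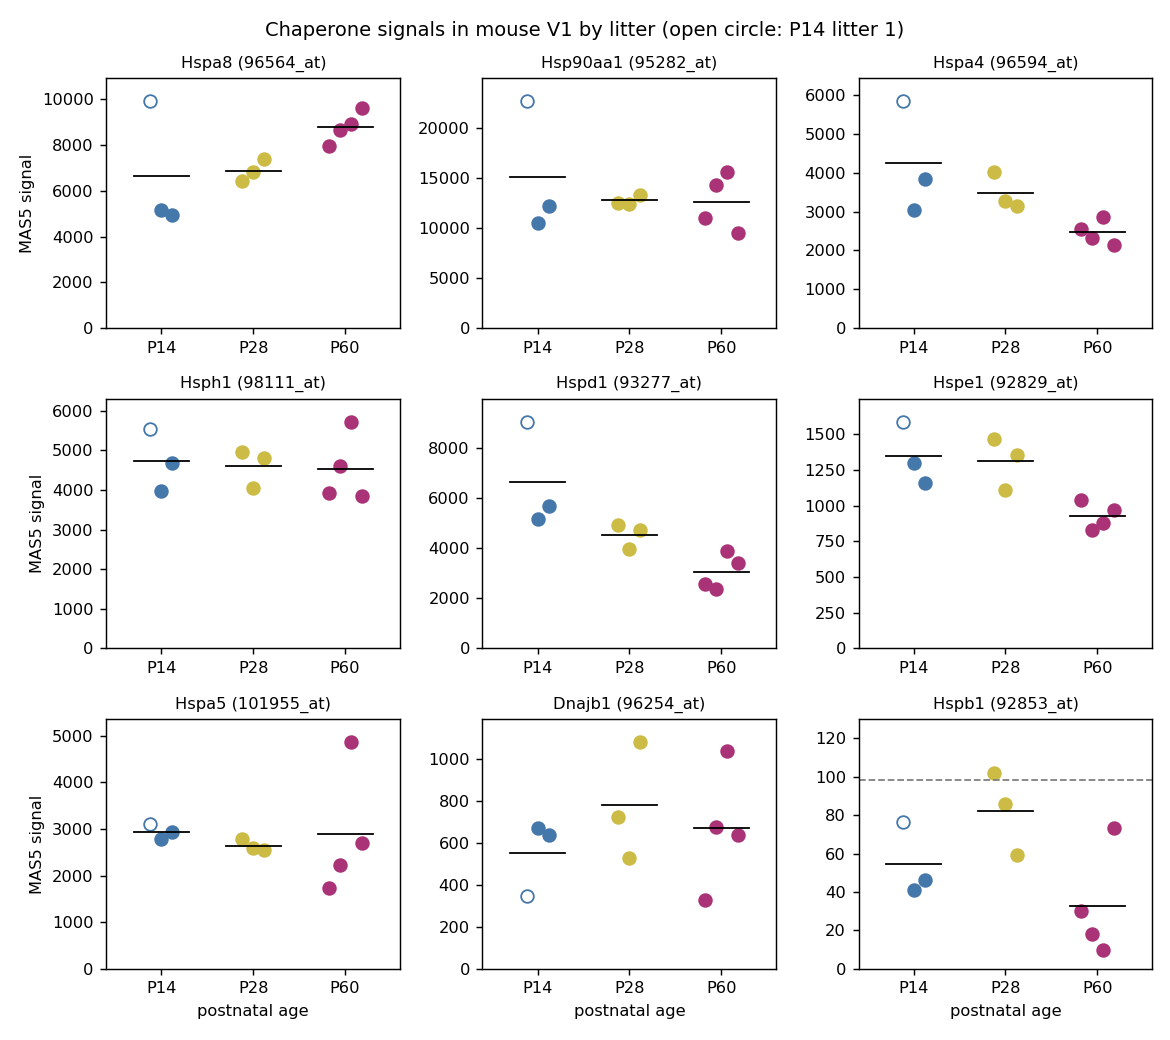
MAS5 signal (linear axis from 0) of 1 probe set for each of the 9 measured members, by litter and age, with the age mean as a line and P14 litter 1 as an open circle. The dashed line in the Hspb1 panel is the background level of chip A, 98.4. Hspd1 steps down from P14 to P28 to P60 without overlap, and the P14 mean of Hspa8 is raised by the open circle at 9927.

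In the mitochondrial pair, 1 of the 2 Hspd1 probe sets and that of Hspe1 had lower signals in every P60 litter than in any younger one. Hspd1 encodes HSP60, the barrel in which imported mitochondrial proteins fold, and Hspe1 encodes HSP10, its lid. On its brighter probe set (93277_at) Hspd1 had signals of 9078, 5186 and 5697 in the P14 litters, 4928, 3962 and 4731 at P28, and 2589, 2366, 3897 and 3417 at P60. Every P28 litter was below every P14 litter, and every P60 litter below every P28 litter, an order without overlap that 0.444% of all tested probe sets had. The mean went from 6654 ± 2115 (SD, n = 3) through 4540 ± 510 (SD, n = 3) to 3067 ± 714 (SD, n = 4).

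The log2 change of Hspd1 from P14 to P60 was -1.09 with a standard error of 0.249 and limma's adjusted p was 0.0866, the lowest of all members. It was -0.85 (adjusted p = 0.0514) without P14 litter 1, and over the 19 alternative settings and the main one it ran from -1.25 to -0.83, with adjusted p from 0.00593 to 0.253. The lower end came from limma's array weights, under which 17.5% of all tested probe sets were called for P60 against P14, 5.61% for P28 against P14 and 14.6% by the F-test. The steps from P14 to P28 and from P28 to P60 were -0.51 (adjusted p = 0.683) and -0.58 (adjusted p = 0.894). The other Hspd1 probe set (161140_r_at), of the r type designed under relaxed rules, gave 292, 278 and 476 at P14, 391, 335 and 377 at P28, and 599, 446, 326 and 279 at P60. Its log2 change from P14 to P60 was 0.20 (adjusted p = 0.741), opposite in sign to the brighter one, so the 2 probe sets of the gene disagree.

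For Hspe1 (92829_at) the signals were 1590, 1296 and 1156 at P14, 1469, 1109 and 1357 at P28, and 1038, 830, 876 and 973 at P60. All P60 litters were below all P28 and P14 litters, which overlapped each other. The mean was 1347 ± 221 (SD, n = 3), 1311 ± 184 (SD, n = 3) and 929 ± 94.0 (SD, n = 4). From P28 to P60 the log2 difference was -0.48, with a standard error of 0.190, an unadjusted p of 0.0277 and an adjusted p of 0.894. From P14 to P60 it was -0.51 (adjusted p = 0.232), and between -0.61 and -0.37 over all settings. With all litters neither mitochondrial gene passed. Under array weights the Hspd1 probe set 93277_at passed from P14 to P60 and in the F-test (limma, adjusted p = 0.0146), and Hspe1 did not.

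Hspd1 and Hspe1 lie head to head and share the sequence between their starts, so it is shown here. In RefSeq (GRCm38.p6) the window from 250 bases before to 50 after the Hspe1 start holds the heat shock element, the binding motif of heat shock factor 1, as 3 overlapping matches to GAANNTTC or TTCNNGAA. The stretch at chr1:55088044-55088091, plus strand, ends before the Hspe1 start, and capitals mark the merged matches.
Hspd1 and Hspe1 shared promoter: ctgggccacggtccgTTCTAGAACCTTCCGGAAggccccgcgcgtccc
The same letters lie, on the other strand, in 1 of the 2 Hspd1 windows. A match of 3 units, in which both forms overlap, occurred in 0.603% of 32851 promoter windows and a match of 2 units in 15.1%, both strands searched. Among the 7 members with a window, 2-unit matches were also found for Hsph1, which had a 3-unit match too, and Hspb1, and these letters were not found in the windows of Hspa4, Hspa5 or Dnajb1. A match is a description and not a bound site.

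Hspa4 belongs to the HSP110 family of exchange factors and had 5 probe sets. The brightest (96594_at) gave 5854, 3042 and 3843 at P14, 4021, 3282 and 3138 at P28, and 2549, 2332, 2865 and 2149 at P60. As with Hspe1, all P60 litters were below all litters of both earlier ages, which 1.42% of all tested probe sets and 3 of the 12 members showed, the third being Hspd1. The mean was 4246 ± 1449 (SD, n = 3), 3480 ± 474 (SD, n = 3) and 2474 ± 308 (SD, n = 4). Its log2 change from P14 to P60 was -0.73 with a standard error of 0.234 (limma, adjusted p = 0.176), and -0.47 without P14 litter 1 (adjusted p = 0.177). Under array weights it was -0.53 and passed (limma, adjusted p = 0.0445), where 17.5% of all tested probe sets were called.

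A further Hspa4 probe set of the g type (100353_g_at), which can pick up related transcripts, had 334, 381 and 306 at P14, 264, 271 and 354 at P28, and 39.7, 137, 268 and 57.7 at P60. The P60 litters spread over a wide range, with litters 1 and 4 below the background of chip A and litter 3 among the P28 litters. The probe set was above the chip A median on 7 arrays, those of P14, of P28 and of P60 litter 3. It thus entered the test mainly through the ages where it was high. Its order, its passes and its place in the counts of members are therefore only a description. The log2 change from P14 to P60 was -1.41 with a standard error of 0.409 (adjusted p = 0.141). Without P60 litter 3 it was -1.78 and passed (limma, adjusted p = 0.0379), where 1.25% of all tested probe sets were called. Under array weights it was -1.62 and passed (limma, adjusted p = 0.00575), as the probe set also did in the F-test (adjusted p = 0.0109). There 17.5% and 14.6% of all tested probe sets were called. In the restricted set, which leaves out P14 litter 1 and the P60 arrays that stood apart (litters 1 and 4 on chips A and B, litter 2 on chip C), it was -0.71 (adjusted p = 0.234), when 2.13% of all were called. The third tested Hspa4 probe set (92571_at) stood at -0.28 (adjusted p = 0.704), and 2 further ones were too dim to be tested. One of these (100352_at) had higher signals at P60, with means of 47.5 ± 48.1 (SD, n = 3), 79.6 ± 12.5 (SD, n = 3) and 116 ± 9.33 (SD, n = 4) and every P60 litter above every younger one. It was above background on 5 of 10 arrays. The other (161745_f_at) had overlapping ages, so the gene's probe sets did not share 1 direction.

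Counted over the members, every P60 litter was below every P14 litter in 4 of the 12 probe sets, both of those Hspa4 probe sets, Hspd1 and Hspe1, against 6.42% of all tested probe sets, and above it in 0, against 6.61%. Between P28 and P60 these counts were 3 lower (4.46% of all) and 1 higher, Hspa8 (3.9%). Between P14 and P28 they were 2 lower, Hspd1 and Hspa5 (8.41%), and 0 higher (9.45%). The 12 probe sets stem from 8 genes and the comparisons share litters, so these counts are not independent of each other. The Hspa4 probe set 100353_g_at entered the test mainly through the younger ages, so its part in the count of 4 is only a description.

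**Figure D2:**
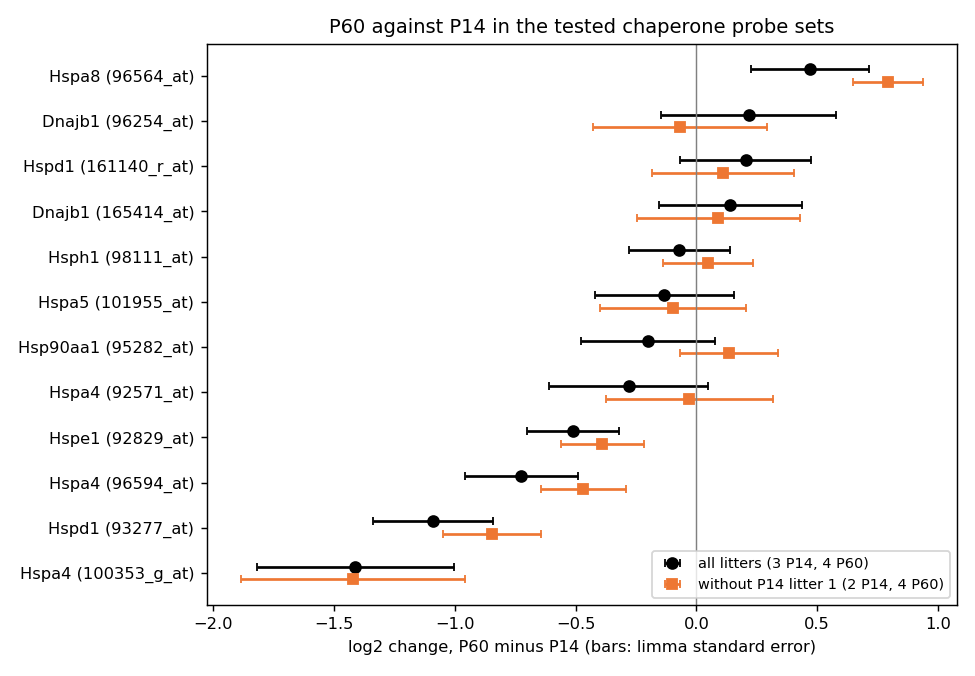
Log2 change from P14 to P60 of the 12 tested member probe sets, with limma's standard error as bars, over all litters (black circles) and without P14 litter 1 (orange squares). Hspa8 moves from 0.47 to 0.79 when that litter is left out, the brighter Hspd1 probe set from -1.09 to -0.85, and Hsp90aa1 from -0.20 to 0.13.

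Hspa8, the constitutive HSP70 of the cytosol, had higher signals at P60 than at P28. Its single probe set (96564_at) had signals of 9927, 5154 and 4931 at P14, 6434, 6832 and 7380 at P28, and 7946, 8660, 8915 and 9612 at P60. All P60 litters were above all P28 litters, and P14 litter 1 was the highest of all 10, at 1.97 times the mean of the other P14 litters. The mean was 6670 ± 2822 (SD, n = 3), 6882 ± 475 (SD, n = 3) and 8783 ± 688 (SD, n = 4).

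From P28 to P60 the log2 change of Hspa8 was 0.35 with a standard error of 0.244 (limma, adjusted p = 0.898), so it did not pass. With all litters the change from P14 to P60 was 0.47 with a standard error of 0.244 (limma, adjusted p = 0.366). With P14 litter 1 left out the P14 mean was 5042, and Hspa8 rose by 0.79 with a standard error of 0.146 (adjusted p = 0.0212), when 2.4% of all tested probe sets were called. It was also called in the restricted set, at 0.80 (adjusted p = 0.0318; 2.13% of all), and under array weights, at 0.79 (adjusted p = 0.00442). Over all settings the adjusted p ran from 0.00442 to 0.636. Without P14 litter 1 the 3 ages did not overlap and ascended, as in 0.632% of all tested probe sets.

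Pearson's correlation with Hspa8 over the 10 litters, on log2 signals of chip A, was highest for Napb (0.96), Ncoa3 (0.95) and Aktip (0.94) among 6155 probe sets of other genes. Napb encodes beta-SNAP, which takes part in recycling the SNARE complexes of vesicle fusion. These are the highest of many values, and all points share the age differences and the odd P14 litter. The same measure was 0.44 with Hsp90aa1, 0.26 with Hsph1, -0.17 with the chip A probe set of Dnajb1 and -0.21 with the brighter Hspd1 probe set, so the members did not vary as 1 block.

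For the stress-related partners of the cytosolic HSP70 the differences between ages were smaller than the spread between litters. Dnajb1, an HSP40 that delivers clients to HSP70, had signals on chip A (96254_at) of 347, 672 and 639 at P14, 726, 529 and 1082 at P28, and 329, 677, 1038 and 640 at P60. On chip C (165414_at) they were 491, 550 and 544, then 649, 411 and 612, then 485, 834, 736 and 390. The ages overlapped on both, with log2 changes from P14 to P60 of 0.22 with a standard error of 0.363 (adjusted p = 0.798) and 0.14 with a standard error of 0.296 (adjusted p = 0.842). The lowest P14 litter on both chips was litter 1, at 0.529 and 0.897 times the mean of the other P14 litters, unlike its high place for Hspa8 and Hspd1.

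Hsph1, the stress-inducible HSP110 gene (98111_at), gave 5550, 3976 and 4694 at P14, 4972, 4040 and 4800 at P28, and 3915, 4611, 5729 and 3856 at P60. Its age means lay between 4528 and 4740, and the log2 change from P14 to P60 was -0.07 with a standard error of 0.208 (adjusted p = 0.888). Over all settings it ran from -0.19 to 0.25, so no direction can be given.

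Hsp90aa1, the stress-inducible form of cytosolic HSP90, had 1 bright probe set (95282_at) with 22709, 10459 and 12188 at P14, 12548, 12404 and 13357 at P28, and 11043, 14355, 15655 and 9529 at P60. P14 litter 1 was the highest of all 10, at 2.01 times the mean of the other P14 litters, and P60 litters 1 and 4 were the lowest of their age. The log2 change from P14 to P60 was -0.20 with a standard error of 0.278 (adjusted p = 0.752), 0.13 without P14 litter 1 (adjusted p = 0.752) and 0.41 in the restricted set (adjusted p = 0.218). The other 2 Hsp90aa1 probe sets were mostly at background: 1 was above it on 0 of 10 arrays and the other on 2, which were P60 litters 1 and 4 with 346 and 367. No level is given for Hsp90ab1.

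Hspa5, the HSP70 of the endoplasmic reticulum and a sensor partner of the unfolded protein response, was even in the young litters. Its probe set (101955_at) gave 3096, 2792 and 2924 at P14 and 2781, 2598 and 2550 at P28. At P60 the litters spread over 1732, 2228, 4866 and 2699, with litter 3 the highest of all 10 arrays. The SD was 152 at P14 (n = 3), 122 at P28 (n = 3) and 1381 at P60 (n = 4), around means of 2937, 2643 and 2881. The log2 changes were -0.15 from P14 to P28, with P28 below P14 without overlap, 0.02 from P28 to P60 and -0.13 from P14 to P60, with adjusted p of 0.939, 0.998 and 0.845.

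The promoter of Hspa5 is shown because, of the 7 members with a window, it alone had a match to the ER stress response element. This motif (CCAAT and CCACG with 9 bases between them) was found in 0.119% of the 32851 windows (both strands). No window was available for Hspa8, Hsp90aa1 or Hsp90ab1. The stretch at chr2:34772005-34772063 (GRCm38.p6, plus strand) lies before the start, with the match in capitals.
Hspa5 promoter: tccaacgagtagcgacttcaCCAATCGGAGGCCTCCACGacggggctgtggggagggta
Over the litters the chip A probe sets most like Hspa5 were those of Zfp871 (Pearson's r = 0.96), Rbmx (0.93) and Adipor2 (0.89), and r with Hspa8 was 0.08. The high P60 litter 3 enters each of these values.

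Hspb1, the small heat shock protein HSP27, which holds unfolded proteins without ATP and binds actin, was not well above background. On chip A (92853_at) the signals were 76.6, 40.9 and 46.0 at P14, 102, 85.8 and 59.1 at P28, and 30.3, 18.3, 9.55 and 73.4 at P60, where the background level of that chip, the 95th percentile of the Bacillus control probe sets, was 98.4. On chip C (171538_f_at) they ran from 14.7 to 43.0 at P14, from 60.3 to 183 at P28 and from 17.0 to 407 at P60, against a background of 252. A single array exceeded the background on each chip, P28 litter 1 on chip A and P60 litter 3 on chip C. No change is given. The nearest patterns to the chip A probe set, Txndc17 (r = 0.91), Mphosph10 and Babam2 (both 0.88), follow values at background.

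**Figure D3:**
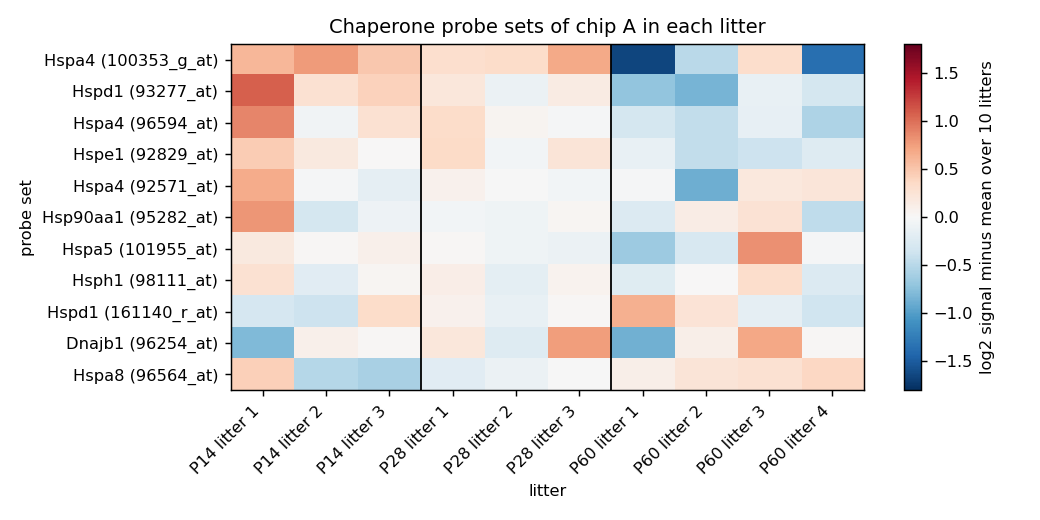
Log2 signal (plus a constant) of the 11 tested chip A member probe sets in each of the 10 litters, relative to the probe set's mean over the litters, coloured from blue (lower) to red (higher). P14 litter 1 is high for Hspd1 (1.08), Hspa4 (96594_at, 0.87) and Hsp90aa1 (0.80) and low for Dnajb1 (-0.79), and P60 litter 3 is high for Hspa5 (0.82) and Dnajb1 (0.69).

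The rest of the chaperone system was read from lists by role holding 110 genes, of which 104 had a probe set. The lists were drawn up with earlier results of these data known. Of their 237 probe sets 173 were tested, for 98 genes. Limma called 0 of the 173 from P14 to P28, 0 from P28 to P60 and 1, higher, from P14 to P60, beside 0.00483%, 0% and 0.396% of all tested probe sets. At an unadjusted p under 0.05 these were 11, 4 and 28 of the 173, beside 7.87%, 5.43% and 15.7% of all tested probe sets. In the restricted set 3 were called from P14 to P28, when 1% of all tested probe sets were. The median log2 change from P14 to P60 was 0.02.

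The 1 call was Cdc37l1, related to the HSP90 co-chaperone Cdc37. Its probe set 110248_at on chip B had 642, 531 and 565 at P14, 911, 866 and 1213 at P28, and 1134, 1177, 1393 and 1089 at P60. All P14 litters were below all later ones. It rose from P14 to P60 by a log2 of 0.98 with a standard error of 0.182 (adjusted p = 0.0441; 0.00207 to 0.176 across the settings). The call was lost in 8 of the 10 fits that left out 1 litter, and held without P14 litter 1 (0.0211) and without P60 litter 3 (0.0473). It was also lost with no variance trend, no filter, quantile normalization, the litter number as a replicate block, and only the 2 ages compared. The gene's 5 other tested probe sets had changes from -0.69 to 1.51, none of which passed with all litters. Under array weights 166321_at passed in the opposite direction, at -1.07 (limma, adjusted p = 0.0265).

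Among the stress-inducible HSP70 genes, Hspa1b (100946_at) had 54.0, 115 and 90.6 at P14, 130, 146 and 176 at P28, and 199, 294, 303 and 344 at P60. The ages ascended without overlap, as in 0.188% of all tested probe sets, from a P14 mean of 86.6 that lay below the background of 98.4. The probe set was above the chip A median of 207 on 3 arrays only, P60 litters 2, 3 and 4. It thus entered the test through the age where it was high, so its order and its passes are only a description. Its log2 change from P14 to P60 was 1.38 with a standard error of 0.292 (adjusted p = 0.0669; 0.00865 to 0.230 across the settings). It passed with no variance trend (0.0468; 0.246% of all tested probe sets called) and with array weights (0.00865). Hspa1a (93875_at), a nearly identical gene outside the naming rule, gave 369, 281 and 281 at P14, 384, 381 and 630 at P28, and 482, 430, 553 and 520 at P60, a log2 change of 0.62 (adjusted p = 0.216). How far each probe set picks up the other gene was not tested. In the cytosolic HSP70 list as a whole, 7 of 14 estimates were above 0, against 54.8% of all tested probe sets. The list's median was -0.01 (-0.19 without P14 litter 1).

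Regulators of the heat shock and unfolded protein responses had the highest median, 0.49 over 7 tested probe sets (0.56 without P14 litter 1). Of these 7, 5 had estimates above 0, against 54.8% of all tested probe sets, and 0 passed. The one with the smallest p was Xbp1, a transcription factor of the unfolded protein response, which went from 935 ± 29.8 (SD, n = 3) at P14 through 1249 ± 187 (SD, n = 3) to 1431 ± 226 (SD, n = 4) at P60, at 0.58 (adjusted p = 0.176). Of the endoplasmic reticulum chaperones, 16 of 30 estimates were above 0, against 54.8% of all tested probe sets. Their median was 0.02 (0.17 without P14 litter 1). In the main fit their smallest p from P14 to P60 was that of Herpud1, a stress-induced protein of ER-associated degradation. It had 438, 547 and 659 at P14, 976, 666 and 865 at P28, and 884, 1051, 924 and 1019 at P60. All its P14 litters were below all later ones, at 0.79 from P14 to P60 (adjusted p = 0.111).

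In the remaining lists 0 probe sets passed other than Cdc37l1, which is on the co-chaperone list. The HSP40 list had a median of -0.05 over 38 probe sets (-0.17 without P14 litter 1), and its leading member was Dnajc5, the cysteine string protein of synaptic vesicles, at -0.66 (adjusted p = 0.122) on 109761_g_at. It passed without P14 litter 1 (-0.77, adjusted p = 0.0438), and the gene's other 5 probe sets stood between -0.74 and 0.28. The TRiC chaperonin and prefoldin list had a median of 0.20 over 21 (0.0078 without P14 litter 1), led by the prefoldin subunit Pfdn2 at 0.70 (adjusted p = 0.161). Mitochondrial chaperones and proteases other than Hspd1 and Hspe1 had a median of -0.04 over 12 (-0.05 without P14 litter 1), led by the protease gene Clpp at 1.13 (adjusted p = 0.153). Clpp stood at 0.75 without P14 litter 1 (adjusted p = 0.186) and at 0.39 in the restricted set (adjusted p = 0.473). The small heat shock proteins had a median of -0.30 over 9 (0.0044 without P14 litter 1), led by Hspb2 at -0.43 (adjusted p = 0.382). The HSP90 and HSP70 co-chaperones had a median of 0.13 over 42 (-0.02 without P14 litter 1).

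**Figure D4:**
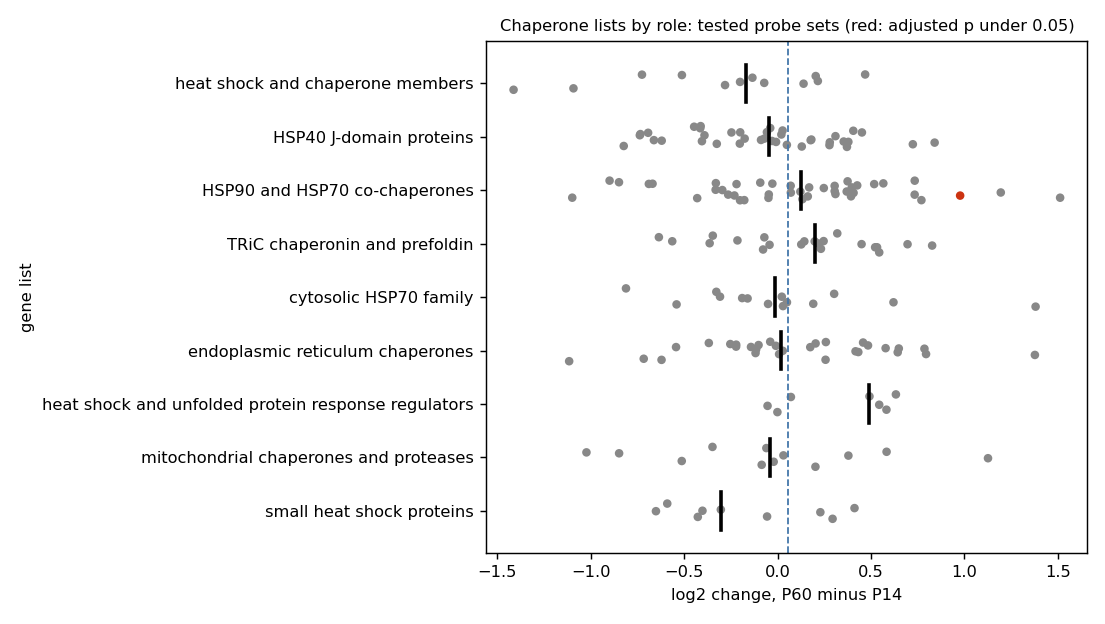
Log2 change from P14 to P60 of every tested probe set of the members and of 8 chaperone lists by role, with a black bar at each list's median and a dashed line at the median of all tested probe sets, 0.06. The single red point is Cdc37l1 at 0.98, and the regulators have the highest median, 0.49.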

How the data were processed

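Each deposited file holds 1 signal intensity per probe set, linear and not logged; the submitters' processing notes name MAS5. The 2% trimmed mean of every deposited array rounds to 500, so they were used as scaled. The array annotation gave the genes, updated through the gene ID (99.7% of single symbols matched, RefSeq GRCm38.p6). Before taking log2 of the deposited signals, 38.6, 57.8 and 44.0 were added on chips A, B and C (the 20th percentile of each). Probe sets above the chip median (207, 252 and 183) on at least 3 arrays were fitted per chip with limma 3.58.1 in R 4.3.3 (lmFit, eBayes with a variance trend) over all 10 litters with age as the only term, adjusted over the 3 chips together (Benjamini-Hochberg, threshold 0.05). This main fit, with every array weighted alike, is what is meant by "with all litters". A log2 change is on the scale with the constant and understates changes of dim probe sets. The number of arrays limits the precision. Background is the 95th percentile of 15 Bacillus control probe sets per chip.

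All member probe sets are named. Of other chaperone genes, those called and the one with the smallest p for P60 against P14 per list are named. Members and lists were chosen with earlier results of these data known. The fit was also run on simulated data in which no litter stood apart, so that run cannot show how it treats such litters. Each litter was left out in turn, and 9 other settings were tried. The pattern search named Hsp90ab1 too, which had no probe set. Of a gene's several probe sets, the one with the highest mean signal is described first and drawn, a choice that does not mean it measures the gene better.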

Additional observations from a re-analysis of the deposited data

How the results depend on the processing

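Both calls and estimates depended on single litters. Leaving out 1 litter turned the sign of the P60 against P14 change for Hsp90aa1 (0.13 without P14 litter 1), Hsph1 (0.05), Dnajb1 on chip A (-0.07), Dnajb1 on chip C (-0.02 without P60 litter 2) and Hspa5 (0.07 without P60 litter 1). Of 12 member probe sets, 6 kept the sign of the P60 against P14 change in all 19 alternatives: Hspa8, both Hspd1 probe sets, Hspe1 and the Hspa4 probe sets 96594_at and 100353_g_at. The count of members called from P14 to P60 was 0 in the main fit and between 0 and 1 when a litter was left out. It was 1 without P14 litter 1 (Hspa8) and 1 without P60 litter 3 (Hspa4, 100353_g_at). This Hspa4 probe set entered the test mainly through the ages where it was high, so its calls are only a description. The restricted set called 1, Hspa8. Array weights, also with all 10 litters, called 4: Hspa8, Hspd1 (93277_at) and the Hspa4 probe sets 96594_at and 100353_g_at. The F-test under array weights called 3, which were these without 96594_at. The other chaperone count from P14 to P28 was 0, 3 in the restricted set and 10 with array weights. From P14 to P60 it was 1, between 0 and 3 when a litter was left out (3 without P14 litter 1), 2 in the restricted set, 33 with array weights, and 0 with no filter, quantile normalization or only the 2 ages compared. With the litter number as a replicate block it was 0, and the block called 0 members. Litters of the same number correlated between -0.06 and 0.13 in their deviations from the age means, so the numbers were not taken to pair litters. No member was called from P14 to P28 or from P28 to P60 in any setting. Array weights were estimated from 10 arrays, and the cause of the larger counts was not tested.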
